A study of Mus musculus with 8 samples.

Results

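The genes described here are 108 developmental regulators of the kind that polycomb complexes keep silent in early embryos, out of 19058 genes with a value in these libraries. Members are the genes whose symbols belong to the Hox, Pax, Lhx, Nkx, Dlx, Irx and Tbx families of transcription factors, to the sine oculis family of homeobox factors or to the Wnt family of secreted ligands, with 5 genes named singly (Sox9, Bmp2, Bmp4, Sall1 and Sall3). By family these were 34 Hox, 8 Pax, 8 Lhx, 11 Nkx, 5 Dlx, 4 Irx, 11 Tbx and 16 Wnt genes, with 6 of the sine oculis family. No polycomb mark or binding was measured in these libraries, so the choice says nothing on whether a given gene carried the mark in these embryos. The libraries hold polyadenylated RNA of mouse late morulae collected 78 h after fertilization. Each zygote had received a small interfering RNA (siRNA) directed at Rbbp4, at Rbbp7 or at both genes, and the control zygotes received a non-specific siRNA. Each of the 4 groups (control, Rbbp4 knockdown, Rbbp7 knockdown, and a double knockdown of both) had 2 libraries. All groups thus share the injection itself, and no uninjected embryos were analysed here. The labels name no mouse strain and no separate embryo pools behind the paired libraries of a group, so a p-value here reflects the spread between libraries alone, which may be technical.

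Polycomb repressive complex 2 (PRC2) methylates histone H3 at the lysine whose trimethylation marks silent developmental genes, and polycomb repressive complex 1 (PRC1) binds that mark and ubiquitinates histone H2A. The paralogs Rbbp4 and Rbbp7 encode histone chaperones that are subunits of PRC2 and of other chromatin complexes, among them the NuRD and Sin3 deacetylase complexes. Hox genes assign position along the body axis, Pax, Lhx, Nkx, Dlx, Irx and sine oculis family genes encode homeodomain or paired-domain factors of organ and neural patterning, and Tbx genes encode T-box factors of heart, limb and mesoderm. Most of them are switched on only after implantation, while a few, such as Tbx3, are also expressed in pluripotent cells.

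Polycomb-bound genes usually start in stretches rich in the dinucleotide CG, so the 250 bases just upstream of the start are shown for the members that had such a window and that span the range of levels and changes described below. Nkx6-2 was called higher after the double knockdown, Wnt9a was low in the control, and Sall1 and Tbx20 were among the members with the highest values. The sequences are from RefSeq (GRCm38.p6), written 5′ to 3′ on the strand of the gene, with each CG in capitals. They lie at chr7:139582798-139583047 on the minus strand (Nkx6-2), chr11:59306680-59306929 on the plus strand (Wnt9a), chr8:89044163-89044412 on the minus strand (Sall1) and chr9:24774304-24774553 on the minus strand (Tbx20).
Nkx6-2: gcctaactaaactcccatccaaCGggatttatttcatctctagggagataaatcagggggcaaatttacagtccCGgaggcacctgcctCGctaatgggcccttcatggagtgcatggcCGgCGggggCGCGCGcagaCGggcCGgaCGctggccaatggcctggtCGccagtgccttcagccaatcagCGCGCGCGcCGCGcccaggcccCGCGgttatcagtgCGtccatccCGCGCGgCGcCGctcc
Wnt9a: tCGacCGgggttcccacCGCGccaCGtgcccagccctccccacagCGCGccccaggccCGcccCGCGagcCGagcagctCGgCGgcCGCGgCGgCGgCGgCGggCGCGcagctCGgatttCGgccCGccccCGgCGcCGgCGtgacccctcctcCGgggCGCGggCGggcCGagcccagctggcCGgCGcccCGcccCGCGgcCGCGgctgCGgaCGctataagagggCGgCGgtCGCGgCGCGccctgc
Sall1: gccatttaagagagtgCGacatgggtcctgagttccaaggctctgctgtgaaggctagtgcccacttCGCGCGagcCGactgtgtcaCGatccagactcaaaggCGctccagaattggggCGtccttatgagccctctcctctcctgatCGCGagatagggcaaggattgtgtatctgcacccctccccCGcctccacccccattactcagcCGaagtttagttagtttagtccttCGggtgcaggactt
Tbx20: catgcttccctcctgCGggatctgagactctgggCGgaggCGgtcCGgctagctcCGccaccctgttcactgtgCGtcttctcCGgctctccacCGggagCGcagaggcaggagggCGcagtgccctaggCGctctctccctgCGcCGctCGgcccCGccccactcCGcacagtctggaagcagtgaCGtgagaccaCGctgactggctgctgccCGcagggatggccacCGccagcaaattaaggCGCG
The window of Nkx6-2 held 26 CG dinucleotides, that of Wnt9a 48, that of Sall1 13 and that of Tbx20 22. The median over the 12826 genes of the table with such a window was 14, so Wnt9a stood at percentile 99.8, Nkx6-2 at 85.7, Tbx20 at 76.8 and Sall1 at 46.8. These 4 windows were picked for the genes' levels and changes and do not describe the CG content of the set. No comparison of CG content between the members and other genes is given, because a window was at hand for 74 of the 108 members (68.5%), below the 80% set for such a check.

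The values are abundances normalized between libraries by the authors, and their column totals ran from 11334107 to 12011829. Rbbp4 stood at 343 to 433 in the 4 libraries that received its siRNA and at 4370 to 5300 in the other 4, and Rbbp7 at 266 to 327 against 6295 to 8399. The 15 late morula markers (Pou5f1, Nanog, Cdx2 and others) all had a mean of at least 10. Their sum was 60198 to 69315 in the control and 61320 to 63171 in the single knockdowns. In the double knockdown it was 52302 to 53697 and did not overlap the other groups. The sum hides markers that moved in different directions. Nanog was at 6698 and 6322 in the control, 9093 and 10156 with Rbbp7 depleted, and 4192 and 4692 with both depleted. Krt8 was at 4742 and 6946 in the control and 2400 and 2575 with Rbbp7 depleted. Dppa4 stood at 2002 and 2190 in the control and 2228 and 2026 with both depleted. Of 10 markers of cumulus or granulosa cells, which surround the egg, 4 had values. Their sum was 16.0 to 29.3 in the control and 79.4 to 106 in the double knockdown, of which Foxl2 alone made up 74.4 to 101, while Inha, Amh and Cyp11a1 stayed between 0 and 6.29 in all 8 libraries. The part of either marker list in the results below was not tested.

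Most of these regulators were low or undetected in the control morulae. The control libraries listed 63 and 77 of the 108 genes above 0 (58.3% and 71.3%), against 79.3% and 84.8% of all genes of the table. The counts were 84 and 82 with Rbbp4 depleted, 74 and 77 with Rbbp7 depleted, and 83 and 76 with both depleted. The gap to all genes, of which 83.0% to 86.1% were above 0 in the 6 knockdown libraries, was present in every library. The first control library was the lowest for both the members and all genes, and the control and double knockdown groups overlapped. Counts above 0 move with sequencing depth, which the values give only roughly, and no test was run on them. The low values of a library cluster at multiples of a step that, if it is 1 read, is smaller in a deeper library. That step was 1.27 in the first control library and 1.002 in the second, 0.924 and 0.786 with Rbbp4 depleted, 0.793 and 1.04 with Rbbp7 depleted, and 1.05 and 1.24 with both depleted. The first control library thus had both the largest step and the fewest members above 0. Counted at a value of at least 1 instead of above 0, the mean number of members was 68.5 in the control and 68.5 with Rbbp4 depleted. It was 71.0 with Rbbp7 depleted and 77 with both depleted. A value of 1 step falls below this cutoff in both Rbbp4 knockdown libraries and the first Rbbp7 knockdown library. In the other libraries it passes. These counts thus also move with the step and do not rank the groups. Across the 8 libraries, 46 members (42.6%) were above 0 in all, against 69.3% of all genes, and 26 members were above 0 in only 1 to 3 libraries.

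**Figure D1:**
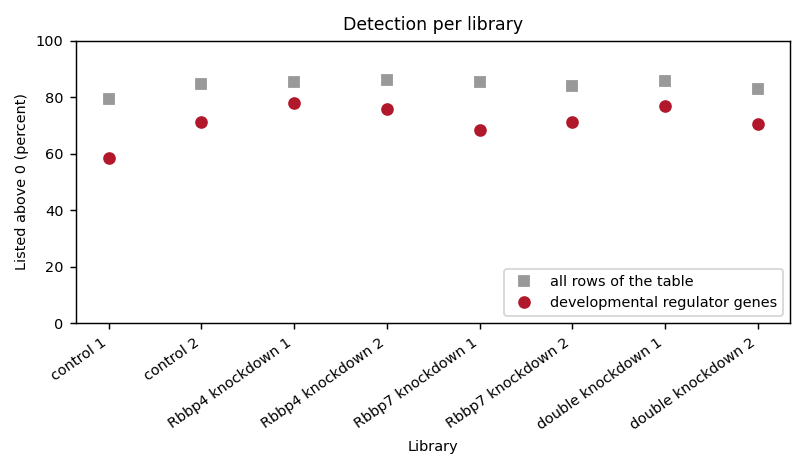
Share of genes listed above 0 in each library (percent), for the 108 developmental regulators (red circles) and all 19058 genes of the table (grey squares). The regulators sit below all genes in each of the 8 libraries, from 58.3% in the first control library to 77.8% in the first Rbbp4 knockdown library.

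Averaged over the 8 libraries, 39 members reached a value of 10 or more: 9 Hox, 2 Pax, 2 Lhx, 3 Nkx, 2 Irx, 8 Tbx, 7 Wnt and 2 sine oculis family genes, with Sox9, Bmp2, Sall1 and Sall3. None of the 5 Dlx genes reached it. The genes just inside were Pax9 (mean 10.1), Tbx6 (10.4) and Hoxb13 (10.8), and those just outside were Six3 (8.63), Nkx2-4 (8.49) and Hoxb4 (7.83). Of the 39, Hoxd10 and Pax9 would have had a mean below 10 without the double knockdown libraries. The other 69 members were described but not tested. Per kilobase of exon, Tbx3 had the highest mean of all members at 1031, at percentile 96.9 of the table, followed by Tbx20 (229), Nkx6-2 (174), Sall1 (157) and Wnt7b (92.6). Sox9, at 32.8 per kilobase, stood at percentile 58.1, and Lhx9 had the lowest value among the tested members at 1.24.

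**Figure D2:**
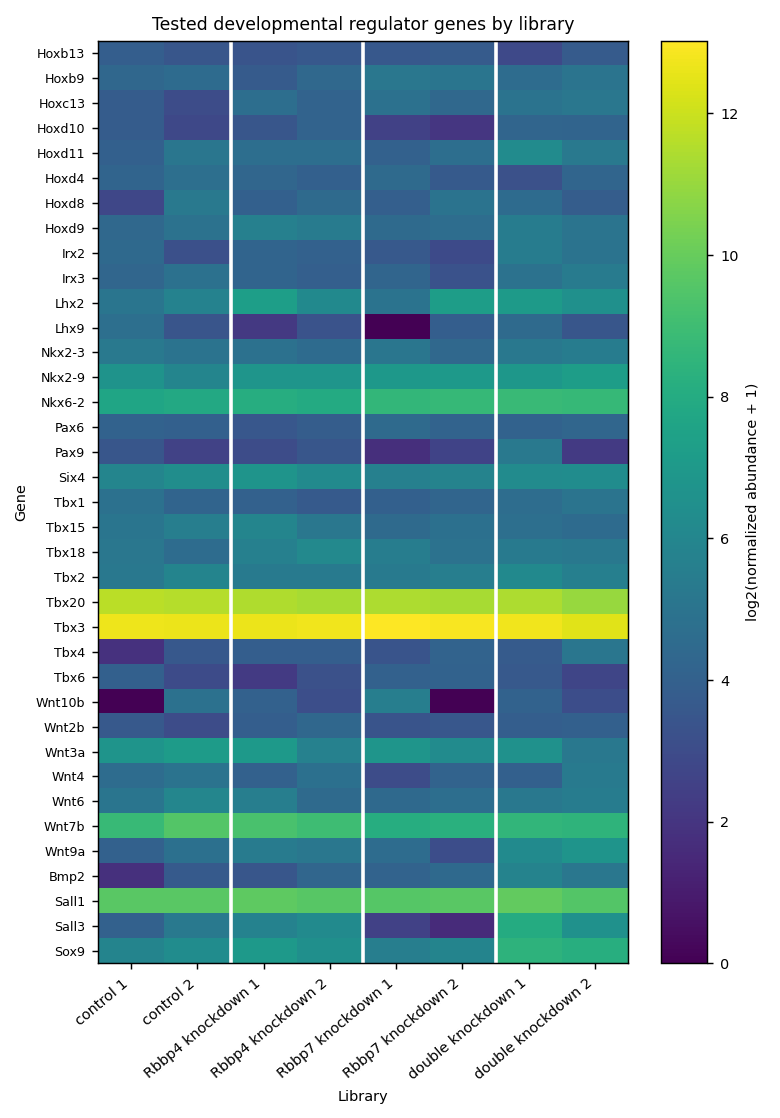
Values of 37 of the 39 tested developmental regulators (rows, by family) in the 8 libraries (columns, groups parted by white lines), as log2(normalized abundance + 1) on the color scale. Tbx3 and Tbx20 are the brightest rows in every library, and most other rows are dark in all groups.

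The comparison of the double knockdown with the control asks which of these genes change when both proteins are depleted. Sox9 and Nkx6-2 rose, and 0 of the 39 tested members fell. These calls are adjusted p-values below 0.05 in a limma fit over all 12565 genes with a mean of at least 10, with Benjamini-Hochberg adjustment over those genes. Of all tested genes, 0.645% were called higher and 0.501% lower in this comparison (1.15% in either direction), and a count of 2 rests on few genes. In bulk embryo RNA, fewer cells of a type and less RNA per cell cannot be told apart. At an unadjusted p below 0.05, 7 members were higher (8.85% of all tested genes were) and 2 were lower (8.47%). Of the 39, 27 had a higher fitted mean in the double knockdown, against 49.9% of all tested genes. The median log2 change of the 39 was 0.36 (0.18 after quantile normalization) against −0.00056. Hoxd10 and Pax9, which reached the filter only with the double knockdown libraries, are among the 27, and no count without them was made. Both double knockdown libraries lay above both control libraries for 18 members (21.9% of all tested genes) and below both for 4 (22.2%). Low genes in general also leaned higher. Over all 3940 genes with a mean of 10 to 100, members included, the median change was 0.20 and 60.2% were positive. Over the 32 members in that range the median was 0.38 and 71.9% were positive. The 7 members with a mean of at least 100 had a median change of 0.02, against −0.03 over all 8625 such genes.

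**Figure D3:**
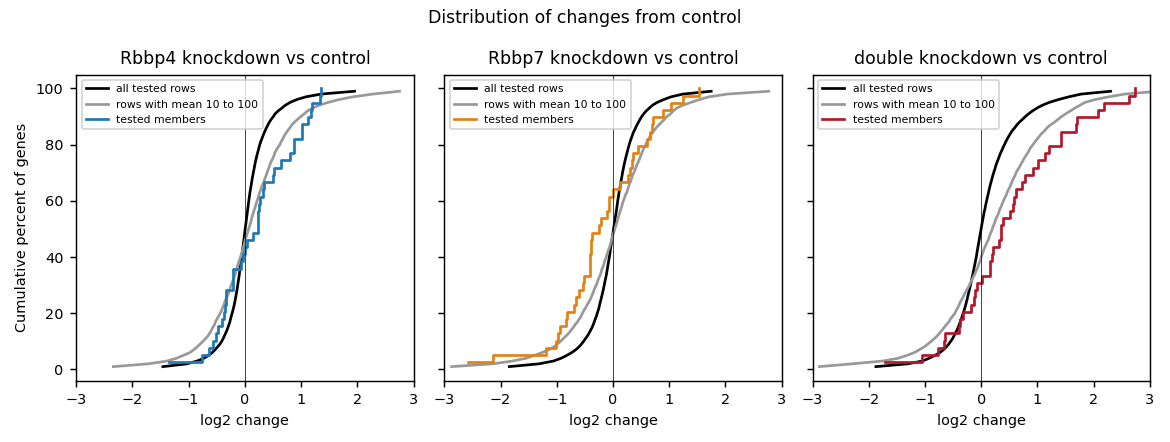
Cumulative percent of genes against log2 change from the control, for all tested genes (black), genes with a mean of 10 to 100 (grey) and the 39 tested regulators (colored), in each knockdown. In the double knockdown the regulators' curve lies to the right of both others over most of its range, with medians of 0.36, −0.00056 and 0.20, and in the Rbbp7 knockdown its lower part lies to the left.

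Sox9 (ENSMUSG00000000567, chr11:112782224-112787760 on the plus strand, GRCm38) encodes the HMG-box factor that directs cartilage formation and testis determination. Its values were 57.3 and 80.2 in control embryos, 125 and 89.6 with Rbbp4 depleted, 45.9 and 58.5 with Rbbp7 depleted, and 338 and 290 with both depleted. Both double knockdown libraries exceeded all 6 others, and the Rbbp4 and Rbbp7 knockdown groups did not overlap each other. The double knockdown mean was 314 ± 33.6 (SD, n = 2) against 68.8 ± 16.2 in the control, or 457% of it. The fitted log2 change was 2.19 ± 0.30 (SE, adjusted p = 0.0178). Against the Rbbp7 knockdown it was 2.57 ± 0.30 (adjusted p = 0.0167), and against the Rbbp4 knockdown 1.56 ± 0.30 (adjusted p = 0.187). The single knockdowns gave 0.64 ± 0.30 (Rbbp4, adjusted p = 0.851) and −0.38 ± 0.30 (Rbbp7, adjusted p = 0.723). The double change exceeded the sum of the single changes by 1.94 ± 0.43, which did not pass the interaction test (adjusted p = 0.593). The call against the control was lost without control library 1 (change 1.95, adjusted p = 0.0844), Rbbp4 knockdown library 1 (0.0511) or 2 (0.0525), or double knockdown library 1 (2.08, 0.0951) or 2 (2.30, 0.0648). That against the Rbbp7 knockdown was lost without either library of the Rbbp4, Rbbp7 or double knockdown, at adjusted p-values from 0.0513 to 0.106.

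Nkx6-2 (ENSMUSG00000041309, chr7:139579376-139582797 on the minus strand) encodes a homeodomain repressor of the ventral neural tube and of oligodendrocytes, and its CG-rich upstream stretch is printed above. Its values were 202 and 235 in control embryos, 276 and 249 with Rbbp4 depleted, 394 and 416 with Rbbp7 depleted, and 460 and 419 with both depleted. The Rbbp7 and double knockdown libraries all lay above the control and Rbbp4 knockdown libraries. The double knockdown change was 1.01 ± 0.17 (adjusted p = 0.0333), to 201% of the control mean. The Rbbp7 knockdown stood at 0.89 ± 0.17 from the control without passing (adjusted p = 0.164), and the double knockdown differed from it by 0.12 ± 0.17 (adjusted p = 0.801). In the Rbbp4 knockdown the change was 0.27 ± 0.17 (adjusted p = 0.885). The call was lost when any 1 of the 8 libraries was left out (changes 0.90 to 1.12, adjusted p-values 0.0548 to 0.137). Nkx6-2 shares 246 of 1907 exon bases (12.9%) with Inpp5a on the opposite strand, and whether counting used strand is not given in the sources used here. Inpp5a, at 548 to 680 in the 8 libraries, had a change of −0.0074 ± 0.15 in the double knockdown (adjusted p = 0.989).

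Sall3 and Sall1 encode spalt zinc-finger factors, of which Sall1 is needed for kidney development. Sall3 (ENSMUSG00000024565, on chromosome 18) stood at 15.3 and 38.1 in control embryos, 53.3 and 74.7 with Rbbp4 depleted, 4.75 and 2.09 with Rbbp7 depleted, and 257 and 94.4 with both depleted. None of the 4 groups overlapped another, with the Rbbp7 knockdown lowest and the double knockdown highest. The double knockdown exceeded the Rbbp7 knockdown by 5.22 ± 0.65 (adjusted p = 0.0169), a call lost without either Rbbp4 knockdown library (0.0569 and 0.0518), either Rbbp7 knockdown library (0.0592 and 0.123) or double knockdown library 1 (0.0820). Against the control the double knockdown was at 2.63 ± 0.65 (adjusted p = 0.0937), the Rbbp7 knockdown at −2.58 ± 0.65 (adjusted p = 0.252) and the Rbbp4 knockdown at 1.34 ± 0.65 (adjusted p = 0.851). The interaction was 3.87 ± 0.92 (adjusted p = 0.593). Sall1 was higher and even, at 825 and 837 in control embryos, 875 and 787 with Rbbp4 depleted, 761 and 818 with Rbbp7 depleted, and 946 and 746 with both depleted. Its groups overlapped except that the Rbbp7 knockdown libraries lay below both control libraries, and its double knockdown change was 0.02 ± 0.15 (adjusted p = 0.974).

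**Figure D4:**
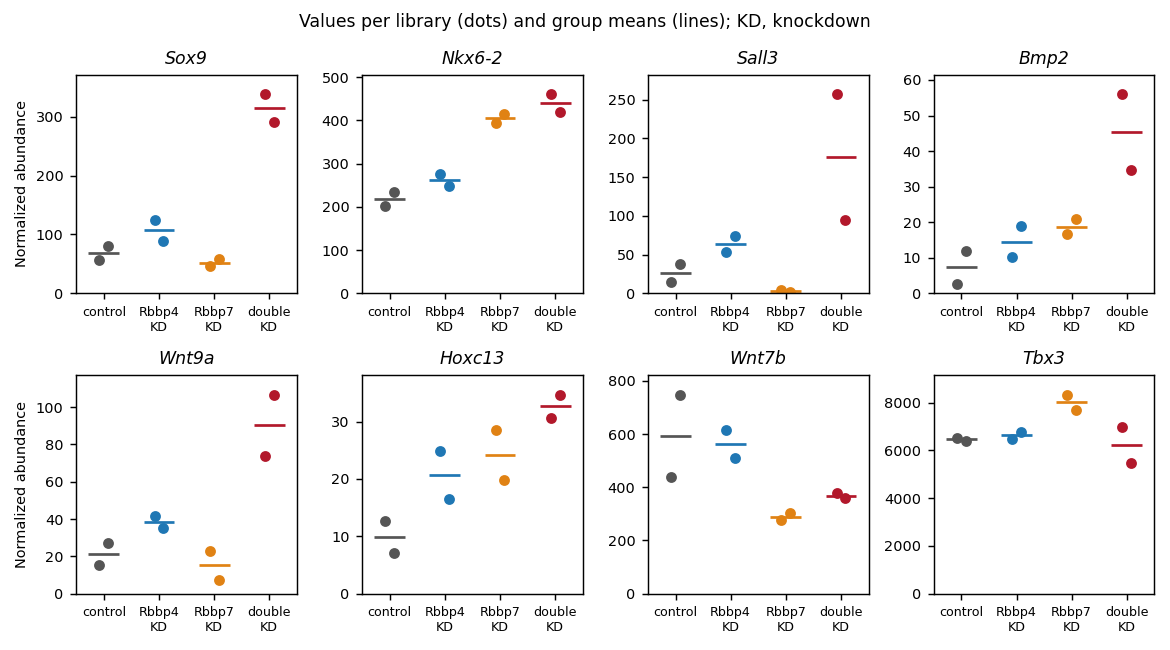
Normalized abundance of 8 members in each library (dots) with group means (lines), for the control, the Rbbp4 knockdown, the Rbbp7 knockdown and the double knockdown, each axis starting at 0. The Sox9, Sall3, Bmp2 and Wnt9a dots are highest in the double knockdown, Nkx6-2 is high in the Rbbp7 and double knockdowns alike, and Wnt7b is lowest in the Rbbp7 knockdown.

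Among the homeodomain genes, no other member passed the test in any comparison. Hoxc13, a Hox factor of hair and nail, stood at 12.7 and 7.02 in control embryos, 25.0 and 16.5 with Rbbp4 depleted, 28.5 and 19.8 with Rbbp7 depleted, and 30.6 and 34.7 with both depleted. All 6 knockdown libraries lay above both control libraries, and the double knockdown change was 1.68 ± 0.56 (adjusted p = 0.174). Nkx2-9, a factor of the ventral midline of the nervous system, was at 101 and 59.1 in control embryos, 110 and 110 with Rbbp4 depleted, 121 and 131 with Rbbp7 depleted, and 119 and 149 with both depleted. Its knockdown libraries also all exceeded the control, with a double knockdown change of 0.78 ± 0.31 (adjusted p = 0.238). Lhx2, a LIM homeodomain factor of the forebrain and hair follicle, was uneven within groups: 32.4 and 52.9 in control embryos, 159 and 72.5 with Rbbp4 depleted, 30.2 and 154 with Rbbp7 depleted, and 135 and 92.7 with both depleted. The Rbbp7 knockdown libraries lay on either side of the control, and the double knockdown change was 1.41 ± 0.69 (adjusted p = 0.332). Six4, a homeodomain factor of muscle and sensory tissue, was at 59.1 and 82.6, 107 and 74.7, 49.7 and 55.4, and 76.7 and 80.2 in the same order of groups. Its Rbbp7 knockdown libraries were below the other 6, and its double knockdown change was 0.16 ± 0.33.

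The 9 tested Hox genes included 5 of the HoxD cluster on chromosome 2. Their double knockdown changes ran from −0.78 ± 0.64 (Hoxd4) through 0.19 ± 0.84 (Hoxd8), 0.57 ± 0.44 (Hoxd9) and 0.93 ± 0.75 (Hoxd10) to 1.21 ± 0.57 (Hoxd11). Elsewhere Hoxb13 was at −0.38 ± 0.70 and Hoxb9 at 0.36 ± 0.50. Adjusted p-values of these Hox genes were 0.318 or above. Irx2 and Irx3, Iroquois factors of neural and heart patterning, were at 1.42 ± 0.65 and 0.59 ± 0.58, Pax6 at 0.15 ± 0.56 and Pax9 at 0.72 ± 1.1, the last with double knockdown values of 37.2 and 3.65.

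The T-box genes held the highest members. Tbx3, which takes part in pluripotency networks, stood at 6513 and 6406 in control embryos, 6492 and 6781 with Rbbp4 depleted, 8332 and 7695 with Rbbp7 depleted, and 6963 and 5466 with both depleted. The Rbbp7 knockdown libraries were above the other 6, with a change of 0.31 ± 0.13 that did not pass (adjusted p = 0.503), and the double knockdown change was −0.07 ± 0.13 (adjusted p = 0.840). Tbx20, known as a heart factor, was at 3245 and 3086 in control embryos, 2859 and 2588 with Rbbp4 depleted, 2753 and 2589 with Rbbp7 depleted, and 2736 and 2096 with both depleted. Each knockdown library was below both control libraries, and the double knockdown change was −0.40 ± 0.14 (adjusted p = 0.194). The other 6 tested Tbx genes had changes from −0.65 ± 0.47 (Tbx15) to 1.71 ± 0.83 (Tbx4), none past the test.

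**Figure D5:**
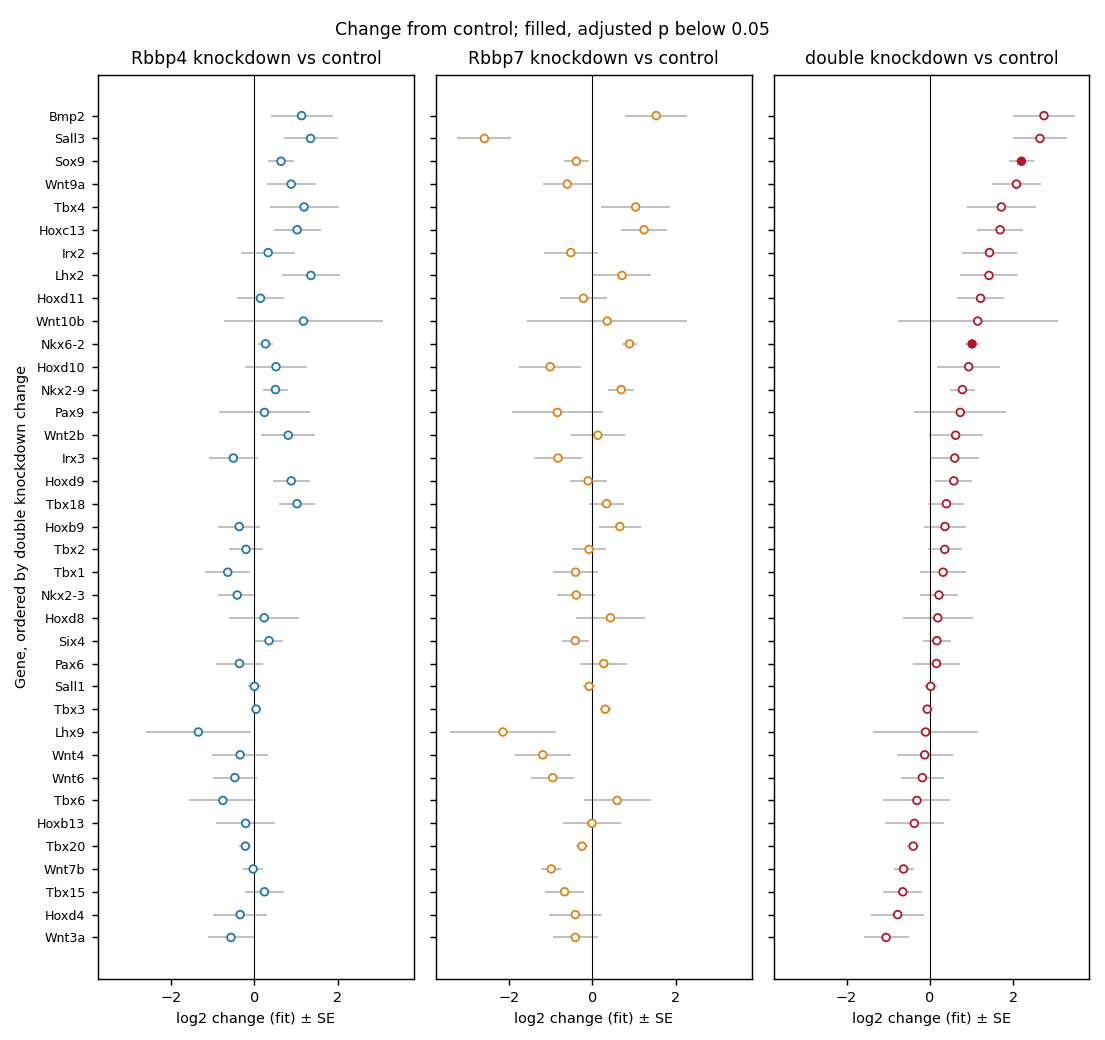
Log2 change from the control (points) with the standard error of the fit (bars) for 37 of the 39 tested members, ordered by the double knockdown change, in each knockdown. The filled points, Sox9 at 2.19 and Nkx6-2 at 1.01 in the double knockdown, passed an adjusted p below 0.05, and the other points are open.

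Among the ligands, Wnt9a and Bmp2 were highest in the double knockdown without passing the test. Wnt9a, a Wnt ligand of joint and limb, stood at 15.3 and 27.1 in control embryos, 41.5 and 35.4 with Rbbp4 depleted, 23.0 and 7.31 with Rbbp7 depleted, and 73.9 and 107 with both depleted. Both double knockdown libraries exceeded the other 6, with a change of 2.07 ± 0.59 from the control (adjusted p = 0.123) and of 2.67 ± 0.59 from the Rbbp7 knockdown (adjusted p = 0.0902). Bmp2, a ligand of the bone morphogenetic protein (BMP) pathway, was at 2.55 and 12.0 in control embryos, 10.1 and 18.9 with Rbbp4 depleted, 16.6 and 20.9 with Rbbp7 depleted, and 55.9 and 34.7 with both depleted. The double knockdown again exceeded all others, at 2.73 ± 0.74 from the control (adjusted p = 0.113), the largest fitted change of the 39 members in that comparison. That rank was narrow, since Sall3 stood at 2.63 ± 0.65 and 1 control value of Bmp2 was only 2.55. Bmp4, its close relative, was too low to test, at 0 and 8.77 in control embryos, 0 in both libraries with Rbbp4 depleted, 0 and 3.65 with Rbbp7 depleted, and 2.42 and 4.26 with both depleted.

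Wnt7b, a ligand of lung and placenta development, stood at 438 and 748 in control embryos, 616 and 509 with Rbbp4 depleted, 277 and 302 with Rbbp7 depleted, and 379 and 359 with both depleted. All 4 libraries that received Rbbp7 siRNA were below the 4 that did not. The change was −0.98 ± 0.24 in the Rbbp7 knockdown (adjusted p = 0.249) and −0.63 ± 0.24 in the double knockdown (adjusted p = 0.224), so neither passed. Wnt3a, a ligand of posterior mesoderm, was at 107 and 140, 133 and 51.1, 108 and 78.3, and 95.0 and 35.9 in the control, Rbbp4, Rbbp7 and double knockdowns. Its double knockdown libraries lay below both control libraries, with a change of −1.05 ± 0.54 (adjusted p = 0.357). Of the other 4 tested Wnt genes, Wnt2b, Wnt4, Wnt6 and Wnt10b, changes ran from −0.18 ± 0.52 (Wnt6) to 1.14 ± 1.91 (Wnt10b, which was listed at 0 in 1 control and 1 Rbbp7 knockdown library).

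Of the rest of the Wnt pathway, 11 receptors, 13 inhibitors or turnover genes, 7 transcriptional genes and 1 secretion gene were tested with limma, and 0 were called in the double knockdown. At an unadjusted p below 0.05, 2 receptors were higher and 0 of the other groups' genes passed. At that threshold 8.85% of all tested genes were higher and 8.47% lower, and a count of 2 rests on few genes. The median changes of these groups, in the order named, were 0.11, −0.12, 0.13 and 0.55. Of 15 tested BMP pathway genes outside the members, Twsg1 rose and Id2 fell, with a median of −0.21. Of all tested genes, 1.15% were called in either direction. The Twsg1 and Id2 calls were not followed under the alternative settings described below. Twsg1, a secreted modulator that binds BMP ligands, was at 48.4 and 35.1 in control embryos, 112 and 90.4 with Rbbp4 depleted, 52.2 and 41.8 with Rbbp7 depleted, and 183 and 155 with both depleted, a change of 2.0 ± 0.32 (adjusted p = 0.0268). Id2, a helix-loop-helix inhibitor that BMP signalling is known to induce, fell from 330 and 296 in the control to 108 and 93.8 in the double knockdown (−1.62 ± 0.21, adjusted p = 0.0144), and stood at 248 and 270 in the Rbbp4 and 145 and 132 in the Rbbp7 knockdown.

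In the Rbbp4 knockdown, 0 of the 39 members passed the test, against 0.0239% of all tested genes. At an unadjusted p below 0.05, 1 member was higher (Tbx18, 1.02 ± 0.43, adjusted p = 0.839) and 0 were lower, where 3.01% and 2.85% of all tested genes were (5.86% in either direction). Of the 39, 22 had a higher mean than the control (50.9% of all tested genes), with a median change of 0.23. That median was 0.0088 without control library 1, 0.032 without control library 2, 0.094 and 0.14 without Rbbp4 knockdown library 1 and 2, and 0.11 with a pseudocount of 5. The Rbbp4 knockdown libraries lay above both control libraries for 11 members (18% of all tested genes) and below both for 6 (17.4%). The Rbbp7 knockdown also gave 0 calls (0.0239% of all tested genes), with 3 members higher (Nkx6-2, Tbx3, Nkx2-9) and 2 lower (Wnt7b, Sall3) at an unadjusted p below 0.05, where 4.19% and 5.36% of all tested genes were (9.55% in either direction). Here 14 members were higher and 25 lower than the control in fitted mean (51.4% of all tested genes were higher), with a median change of −0.25. The libraries lay above the control for 8 members (19.9%) and below it for 10 (19.7%). The comparisons with the control share its 2 libraries, so their values are given side by side only.

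Set against the single knockdowns, the double knockdown had 2 higher members relative to the Rbbp7 knockdown, Sox9 and Sall3, and 0 lower, where 0.239% and 0.119% of all tested genes were called. At an unadjusted p below 0.05, 7 members were higher and 1 (Tbx3) was lower there, where 8.4% and 6.55% of all tested genes were (15% in either direction). In the same comparison 29 of 39 members had a higher mean in the double knockdown (48.2% of all tested genes). The median difference was 0.57 (0.35 without Rbbp7 knockdown library 1, 0.38 after quantile normalization). The double knockdown libraries lay above both Rbbp7 knockdown libraries for 19 members (23.1%) and below both for 4 (23.2%). Relative to the Rbbp4 knockdown 0 members were called (0.0159% of all tested genes), with 2 higher (Sox9, Nkx6-2) and 1 lower (Wnt7b) at an unadjusted p below 0.05, where 4.83% and 4.74% of all tested genes were (9.57% in either direction). In that comparison 25 of 39 had a higher mean (49.5% of all tested genes), with a median of 0.41 (0.23 after quantile normalization). Of the 39, 17 lay above both Rbbp4 knockdown libraries (20.9%) and 4 below both (21.5%). Shares among genes of similar level were not taken for the comparisons with the single knockdowns. Hoxd10 and Pax9, which reached the filter only with the double knockdown libraries, are among the higher members in both of these comparisons. Against the control, low genes in general also leaned higher in the double knockdown. In the interaction 0 members were called (0.00796% of all tested genes), and 4 had an unadjusted p below 0.05 (6.49%). Those above 0 were Sox9, Sall3 and Irx3 (1.92 ± 0.82), where 3.68% of all tested genes were, and the 1 below 0 was Tbx3 (−0.41 ± 0.18), where 2.81% were.

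Of the 69 members below the filter, 11 had both double knockdown libraries above both control libraries (15.9%, against 14.8% of all genes below the filter). These were Dlx2, Dlx3, Hoxa5, Hoxa11, Hoxb5, Hoxb6, Hoxb7, Lhx1, Nkx2-1, Nkx6-1 and Wnt1. Hoxa10, Hoxc4, Nkx2-5, Pax1 and Wnt5b lay below both (7.25%, against 7.62%). Dlx2, Hoxa5, Hoxa11, Hoxb5, Hoxb6, Nkx2-1 and Wnt1 were listed at 0 in both control libraries and above 0 in both double knockdown libraries (10.1%, against 5.08%), and Nkx2-5, Pax1 and Wnt5b the reverse (4.35%, against 2.62%). The values behind these counts are small. Nkx2-1, a factor of lung, thyroid and ventral forebrain, stood at 0 and 0 in the control and at 5.16 and 12.9 in the double knockdown, with 0.963 and 2.45 after Rbbp4 and 1.65 and 2.17 after Rbbp7 depletion. Hoxa11 was at 0 and 0 in the control and at 4.31 and 6.33 in the double knockdown, and Hoxb7 at 5.95 and 0 against 14.6 and 11.4. The same count was 8 members in the Rbbp4 knockdown (11.6%, against 5.64% of genes below the filter) and 4 in the Rbbp7 knockdown (5.80%, against 4.68%). Summed over the 69 members, the values were 119 and 132 in control embryos, 142 and 127 with Rbbp4 depleted, 117 and 131 with Rbbp7 depleted, and 190 and 197 with both depleted. The double knockdown sums exceeded those of the other 6 libraries, as did the summed values of all 6493 genes below the filter, at 18241 and 19499 against 14473 to 16552. The 69 members made up 0.976% and 1.08% of those sums in the double knockdown and 0.776% to 0.902% in the other 6 libraries.

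Of 12 tested PRC2 subunits and partners, 3 fell in the double knockdown: the targeted Rbbp4 and Rbbp7 themselves and Mtf2, a PRC2 partner that binds CG-rich DNA. Mtf2 stood at 5294 and 5448 in control embryos, 4619 and 4452 with Rbbp4 depleted, 4021 and 4542 with Rbbp7 depleted, and 3142 and 3097 with both depleted, a change of −0.78 ± 0.11 (adjusted p = 0.0178). The double knockdown libraries were below all others, and both single knockdowns were below the control. The Mtf2 call was not followed under the alternative settings described below. The methyltransferase Ezh2 had a change of −0.42 ± 0.12 that did not pass (adjusted p = 0.124), and its core partners Eed and Suz12 were at −0.02 ± 0.15 and −0.07 ± 0.12. Of 25 PRC1 subunits 0 were called (1 higher and 0 lower at an unadjusted p below 0.05), with the ubiquitin ligase genes Ring1 and Rnf2 at −0.19 ± 0.21 and −0.10 ± 0.16 and Bmi1 at −0.02 ± 0.18. Of 12 genes for removal of the PRC2 mark or for the opposing trithorax complexes, 0 were called (0 higher and 2 lower at an unadjusted p below 0.05), with a median of −0.13. Of 33 tested developmental transcription factors outside these families, 0 were called in the double knockdown. At an unadjusted p below 0.05, 11 were higher and 2 lower, beside 8.85% and 8.47% of all tested genes. Of the 33, 24 had a higher mean than the control, beside 49.9% of all tested genes. Their median change was 0.48, against 0.13 in the Rbbp4 and −0.04 in the Rbbp7 knockdown. Over all genes with a mean of 10 to 100, 60.2% were higher in the double knockdown, with a median of 0.20. The 33 were not compared with genes of similar level.

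Of the 39 tested members, 10 overlap another annotated gene at exons, 8 of them on the opposite strand, and of the 69 others 25 do. For overlaps on opposite strands, reads of the shared bases cannot be told apart if strand was not used in counting. Of the tested members, Hoxd4, Hoxd10 and Hoxd11 share exon bases with another gene on the same strand. There, use of strand would not separate the reads. For Hoxd4, 39.1% of its exon bases are shared in this way with Gm28230.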

How the data were processed

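Polyadenylated RNA from 8 mouse late morula libraries was analysed, 2 per group, with groups and replicate numbers taken from the sample titles. The authors deposited 1 signal value per gene and library, which is a DESeq2-normalized abundance and not a raw read number. The submitters' processing notes list Trimmomatic, HISAT2, featureCounts and DESeq2 with the build GRCm38. Not given in the sources used here were tool versions, annotation release and use of strand. Of the values up to 8 times the most common step of a library, 49.3% to 68.4% lay within 0.05 of a whole multiple of it, so whole reads were not recovered, depth is known only roughly and no count model was fitted. Symbols were matched for 18942 of 19058 identifiers, and 0 columns fell outside these samples. Exon lengths, overlaps and positions came from a GRCm38 annotation and upstream sequences from RefSeq.

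Values were analysed as log2(value + 1), a scale that understates changes of low genes. The 12565 genes averaging 10 or more across libraries entered a limma 3.58.1 model (R 4.3.3) of 1 mean per group with an intensity trend, giving 4 residual and 5.18 prior degrees of freedom. Two-sided tests were used, with Benjamini-Hochberg adjustment over all tested genes in each of 6 comparisons, and a gene was called below 0.05. These set each knockdown against the control and the double against each single one, and the interaction takes the summed single changes from the double change. The script was tested on simulated data. Members and gene lists were chosen with earlier results of these data known.

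Members given by library were those called in any comparison, those with an unadjusted p below 0.05 in the double knockdown (at most the 15 smallest), the 10 with the highest mean and the 5 named singly. Members given by name alone, single values or a count by family were chosen after their values were seen. Values of 2 tested members are not reported here by name, though they remain in the counts. Alternatives tried were other pseudocounts, filters, scalings and variance models, a replicate block, the libraries of the groups compared alone, and leaving out each library.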

Additional observations from a re-analysis of the deposited data

Results flagged for a closer look

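For 4 members, both libraries of 1 group lay above both control libraries and both of another lay below them. The share of all tested genes that meet this rule was not counted, so the 4 do not single out the members. In each comparison with the control, 18% to 21.9% of all tested genes lay above both control libraries and 17.4% to 22.2% below both. Sall3 was lower with Rbbp7 depleted (−2.58) and higher with both depleted (2.63), a difference of 5.22 that passed the test between those groups (adjusted p = 0.0169). The Rbbp7 knockdown values were low (4.75 and 2.09), and the difference was 4.28 with a pseudocount of 5 and 5.4 with 0.5. The call was lost without the intensity trend and without some single libraries, as given above. Sall3 was higher in the Rbbp4 knockdown (1.34), and the Rbbp7 change minus the Rbbp4 change was −3.93, a difference that was not tested. Hoxd10 was at −1.01 with Rbbp7 depleted and 0.93 with both depleted, which differ by 1.93 (adjusted p = 0.270). It reached the filter only with the double knockdown libraries, where its values were highest (17.9 and 17.3), so its rise there is partly selected. Irx3 was at −0.51 with Rbbp4 depleted, −0.82 with Rbbp7 depleted and 0.59 with both depleted. The double knockdown differed by 1.1 from the Rbbp4 knockdown (adjusted p = 0.582) and by 1.41 from the Rbbp7 knockdown (adjusted p = 0.297). Pax6 was at −0.36, 0.27 and 0.15 for the same groups. Its Rbbp7 change exceeded its Rbbp4 change by 0.63, which was not tested, and its double knockdown change exceeded the latter by 0.51 (adjusted p = 0.822). The Hoxd10, Irx3 and Pax6 differences that were tested did not pass.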

How the results depend on the processing

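The 2 members called in the double knockdown against the control became 0 without the intensity trend and 0 with only the 4 libraries of the groups compared. They became 1 (Sox9) with group variance weights and 1 (Sox9) with a replicate block, under which the calls over all genes went from 144 to 113. Same-numbered libraries did not deviate together (correlations −0.0221 to 0.0510), so the numbers were not used as pairs. Leaving out 1 library gave 0 to 1 calls. Against the Rbbp7 knockdown the 2 calls became 0 without the trend, 0 with only those 4 libraries, and 0 to 2 without 1 library. Calls over all genes in the double knockdown against the control ranged from 2 (4 libraries) to 172 (equal column totals), with 10 without the trend, 38 with group variance weights and 18 without Rbbp4 knockdown library 2. The cause was not tested. Other pseudocounts, filters and scalings left both counts at 2. The median double knockdown change of the members was 0.18 after quantile normalization, 0.32 with a pseudocount of 5, and 0.30 to 0.46 without 1 library.

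Counted at a value of at least 1, the mean number of members detected was 68.5 for the control and 68.5 with Rbbp4 depleted. It was 71.0 with Rbbp7 depleted and 77 with both depleted. This cutoff lies above the step of some libraries and below that of others, so these counts do not rank the groups. At a value of at least 5 it was 46.5 for the control, 45.0 with Rbbp4 depleted, 42.0 with Rbbp7 depleted and 52.0 with both depleted. The members with groups that do not overlap went from 22 to 38 with no filter, since 108 members then enter. That is 35.2% of the members, against 36.7% of all genes.

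Some small changes turned sign. Sall1 in the Rbbp4 knockdown (−0.0015) was 0.017 after quantile normalization, 0.034 with equal column totals and −0.078 to 0.075 without 1 library. Wnt7b there (−0.03) was 0.0027 with equal totals and −0.42 to 0.35 without 1 library, and Wnt3a ran from −1.25 to 0.12. In the Rbbp7 knockdown, without 1 library, Lhx2 ran from −0.44 to 1.87 and Wnt9a from −1.36 to 0.16. In the double knockdown, Six4 ran from −0.075 to 0.40, Sall1 from −0.16 to 0.19 and Tbx3 from −0.24 to 0.11. With 2 libraries per group and a step of 0.786 to 1.27, values near 1 are about 1 read if the step is 1 read.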

Other observations

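Of the 33 tested developmental factors of other families, the 5 with the smallest p in the double knockdown are given here, chosen after their values were seen. None passed the test. Zic5, a zinc-finger factor of the neural plate, had a log2 change of 2.04 ± 0.52 (adjusted p = 0.0977), Pou4f2, a factor of retinal neurons, 2.26 ± 0.66 (adjusted p = 0.128), Isl2, a factor of motor neurons, 1.56 ± 0.45 (adjusted p = 0.127), and Sox21 0.81 ± 0.24 (adjusted p = 0.137). Cdx2, the trophectoderm factor that is already expressed in late morulae, was at −0.80 ± 0.21 (adjusted p = 0.101). Its values were 1409 and 1195 with both genes depleted, below the range of 1700 to 2869 of the other 6 libraries.
The gastrulation marker T was listed at 0 in 7 of the 8 libraries. Sox1, a marker of early neural tissue, was at 1.27 and 3.01 in the control and 7.39 and 12.4 in the double knockdown, with 0.786 to 3.13 in the single knockdowns. The sum of all 8 post-implantation markers overlapped between these groups, at 203 to 263 in the control and 185 to 251 in the double knockdown, and the largest, Otx2, stood at 194 and 94.4 against 118 and 81.7.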
